A study of Mus musculus with 4 samples.

Results

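*Alb*, *Ttr*, *Apoa1*, *Apoa2*, *Apoc1*, *Apoc3*, *Fabp1* and *Mup20*, 8 genes whose RNA is abundant in hepatocytes, were followed through droplet libraries of CD4 T cells sorted from the liver. The members were chosen by symbol, and all 8 were found among the 32285 genes of both count tables. Hepatic CD4 T cells had been sorted by flow cytometry from 2 male mice per genotype, pooled, and captured with a 5′ kit in which a unique molecular identifier (UMI) tags every captured molecule. One genotype was WT and the other was dKO, mice with floxed alleles of *Nr4a1* and *Nr4a2* (fl/fl) and a Cre driven by *Cd4*, which deletes in cells that have passed through a CD4-expressing stage. Both groups were fed a choline-deficient diet with 60 kcal% fat and 0.1% methionine for 8 weeks. Each genotype is 1 library in which the pooled mice cannot be told apart, so no test between genotypes was made and intervals, exact 95% ones throughout, cover counting error only.

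Hepatocytes make most plasma proteins and secrete them into the blood, and the messenger RNAs of albumin and of the apolipoproteins are among the most abundant of the liver. When liver is dissociated, hepatocytes break easily and release RNA into the suspension. Droplets take up some of this free RNA together with a cell, so transcripts of a cell type that the sort should have removed can appear at a low level in every kind of cell. T cells are not known as a source of albumin, and the level of these RNAs in T cells therefore serves as a gauge of free liver RNA, with the exception of *Apoc1*, which macrophages also express.

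After the study's cell filters, more than 200 genes and less than 5% mitochondrial UMIs, the library labelled WT held 10556 cells with 23437516 UMIs and the library labelled dKO 17462 cells with 37794986 UMIs. The paper reports slightly fewer cells for each genotype, and its filter on genes was not applied here. The median depth was 1679 and 1685 UMIs per cell, and 242 cell barcodes occurred in both libraries, among which no barcode had a UMI of the 8 genes in both. Over all kept cells, T cells and others together, the targeted genes went against the labels. *Nr4a1* was at 725 CPM (UMIs of the gene per 1000000 UMIs of the cells counted) in the library labelled WT, against 1659 CPM in that labelled dKO. *Nr4a2* was at 183 and 306 CPM. UMIs come from 5′ ends, which can lie outside the deleted exons, so these counts do not check the deletion, and the libraries are named by their labels only. CD4 T cells were not the only cells present. A productive T cell receptor beta (TRB) contig was listed for 32.7% and 23.5% of the cells. By marker genes or a contig, 69.2% and 66.5% were gated as T cells of a single lineage, of which 44.7% and 32.4% had a contig, and 11.6% and 17.1% as plasmacytoid dendritic cells (pDCs).

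The 8 genes are protein-coding and lie on 7 chromosomes of GRCm38, with *Apoa1* (46228580 to 46230466) and *Apoc3* (46232933 to 46235636) as neighbours on chromosome 9. *Apoc1* lies on chromosome 7 from 19689481 to 19692660, next to *Apoe* (19696109 to 19699188). No other gene of the GENCODE M21 annotation overlaps any of the 8 within the bounds given there, so by this annotation their UMIs are not shared with an overlapping gene. Bases before the start sites of *Alb*, *Fabp1*, *Apoa1* and *Apoa2* are shown as examples of the promoters from which liver cells make these RNAs. Up to 250 bases before the RefSeq start are given, and none that GENCODE M21 places inside the gene. The annotations differ for *Fabp1* (start at 71199827 in GENCODE and 71199879 in RefSeq), *Apoa1* (46228580 and 46228630) and *Alb* (90460897 and 90460870), so 198 bases are printed for *Fabp1* and 200 for *Apoa1*. They are printed 5′ to 3′ from RefSeq (GRCm38.p6, plus strand), with matches to 2 general promoter motifs, the TATA box (TATAAA or its reverse TTTATA) and the CCAAT box (CCAAT or its reverse ATTGG), in capitals.
*Alb*, chr5:90460620-90460869: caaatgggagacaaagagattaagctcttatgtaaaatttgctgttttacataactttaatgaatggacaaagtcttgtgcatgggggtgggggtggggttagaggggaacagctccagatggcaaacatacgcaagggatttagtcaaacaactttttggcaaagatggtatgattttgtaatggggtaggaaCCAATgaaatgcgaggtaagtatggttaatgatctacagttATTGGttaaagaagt
*Fabp1*, chr6:71199629-71199826: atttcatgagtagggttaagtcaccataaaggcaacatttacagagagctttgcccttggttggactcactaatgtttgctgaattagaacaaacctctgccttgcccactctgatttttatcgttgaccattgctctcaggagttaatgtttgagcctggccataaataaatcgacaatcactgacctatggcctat
*Apoa1*, chr9:46228380-46228579: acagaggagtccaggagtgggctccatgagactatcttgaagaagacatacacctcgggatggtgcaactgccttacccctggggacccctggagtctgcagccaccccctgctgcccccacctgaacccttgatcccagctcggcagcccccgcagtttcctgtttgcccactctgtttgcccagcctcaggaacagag
*Apoa2*, chr1:171224804-171225053: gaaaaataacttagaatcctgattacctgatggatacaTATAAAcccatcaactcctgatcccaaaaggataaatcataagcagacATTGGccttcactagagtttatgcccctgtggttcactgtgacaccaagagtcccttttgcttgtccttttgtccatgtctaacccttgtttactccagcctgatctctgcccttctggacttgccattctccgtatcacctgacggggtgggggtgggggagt
TATAAA began 212 bases before the RefSeq start site of *Apoa2*. CCAAT began 56 bases and ATTGG 15 bases before that of *Alb*, and ATTGG 164 bases before that of *Apoa2*. RefSeq lists a second start site of *Apoa2*, whose window (chr1:171221314-171221563, not printed) holds ATTGG 128 bases before the start and no TATAAA. This second start (171221564) lies inside *Tomm40l* (171216011 to 171222514, minus strand), and the part of this in the UMIs of *Apoa2* was not tested. The TATA letters were found, in either orientation, in 4063 of 32851 windows of 250 bases before a start (12.4%) and the CCAAT letters in 11120 (33.8%). Neither was found in the shorter stretches of *Apoa1* and *Fabp1*, which says only that these letters are not there.

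Over all cells, the 8 genes together gave 129 UMIs in the library labelled WT, against 277 in that labelled dKO. This amounted to 5.50 CPM (4.60 to 6.54) and 7.33 CPM (6.49 to 8.24). A UMI of at least 1 of them was found in 117 cells (1.11%, 0.917 to 1.33) and 257 cells (1.47%, 1.30 to 1.66). No droplet looked like a hepatocyte: the highest count in any droplet was 3 UMIs of the 8 genes in the library labelled WT, against 4 in that labelled dKO. Most positive droplets held a single UMI, 107 of 117 and 242 of 257.

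Among the carrier proteins of the plasma, *Alb*, which encodes albumin, had 43 UMIs in 38 cells of the library labelled WT (1.83 CPM, 1.33 to 2.47) and 50 UMIs in 49 cells of the library labelled dKO (1.32 CPM, 0.982 to 1.74). *Ttr*, encoding transthyretin, which carries thyroid hormone and retinol-binding protein, had 11 and 23 UMIs (0.469 and 0.609 CPM). The log2 ratio of CPM, dKO over WT, was −0.47 (−1.09 to 0.15) for *Alb* and 0.37 (−0.72 to 1.56) for *Ttr*. Both intervals include 0, but for *Alb* the call depended on the mixed droplets, without which the ratio was −0.75 (−1.43 to −0.075).

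The apolipoproteins of high-density lipoprotein, *Apoa1* and *Apoa2*, had 11 and 25 UMIs in the library labelled WT, against 17 and 63 UMIs in that labelled dKO. In CPM, *Apoa1* was at 0.469 and 0.450 and *Apoa2* at 1.07 and 1.67. The log2 ratio of *Apoa2* was 0.64 (−0.05 to 1.37). Its interval excluded 0 over all deposited cells (0.048 to 1.45), without mixed droplets (0.065 to 1.65) and in T cells outside the mixed class (0.0084 to 1.84). The ratio of *Apoa1* was −0.06 (−1.24 to 1.18).

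*Apoc1* and *Apoc3* encode small apolipoproteins that hold back the clearance of triglyceride-rich particles. *Apoc1* had 23 UMIs (0.981 CPM, 0.622 to 1.47) in the library labelled WT, against 72 UMIs (1.91 CPM, 1.49 to 2.40) in that labelled dKO. Its log2 ratio was 0.96 (0.26 to 1.70), the sole interval among the 8 genes that excluded 0 over all kept cells. In cells with a TRB contig, mixed droplets included, it was 0.47 (−0.81 to 1.80). In cells of 1000 to under 2000 UMIs it was 1.12 (−0.057 to 2.47). Both intervals include 0. In T cells outside the mixed class (9 and 27 UMIs) it was 1.27 (0.13 to 2.54) and without mixed droplets 1.35 (0.51 to 2.27), which exclude 0. *Apoc3* had 2 and 11 UMIs and a log2 ratio of 1.77 (−0.43 to 4.98).

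*Fabp1*, the fatty acid-binding protein of the hepatocyte cytosol, had 13 UMIs (0.555 CPM) and 36 UMIs (0.953 CPM), with a log2 ratio of 0.78 (−0.17 to 1.82). *Mup20*, a major urinary protein (a pheromone carrier made in the liver of male mice and passed into urine), had 1 and 5 UMIs. The other 21 genes named *Mup* in the list had 2 UMIs together in the library labelled WT, against none in that labelled dKO, where a count of 0 allows up to 3 UMIs (the one-sided 95% limit).

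**Figure D1:**
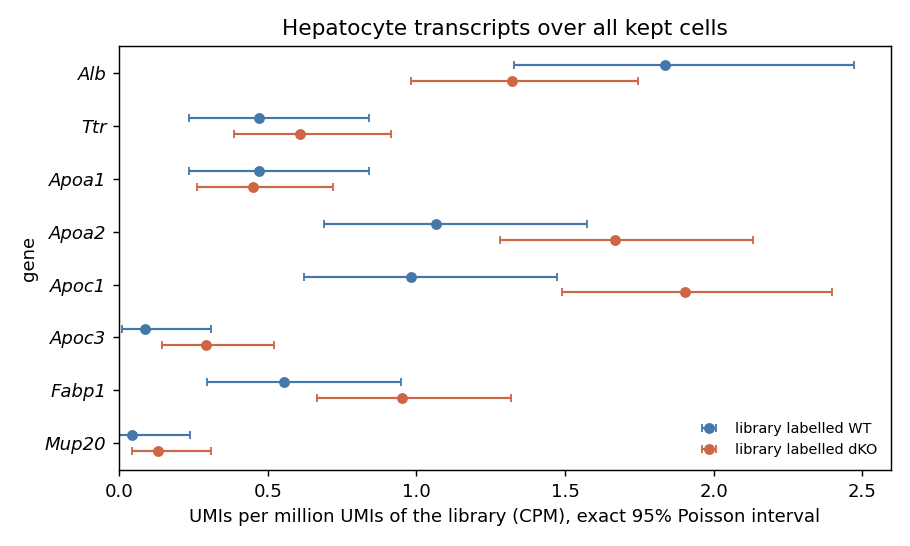
CPM of each of the 8 genes (x axis) over all kept cells, by library, with exact 95% Poisson intervals for counting error. Every gene lies below 2 CPM in both libraries, and the intervals of *Apoc1* (0.981 and 1.91 CPM) do not overlap.

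The sum of the 8 genes was 1.33-fold higher in the library labelled dKO, a log2 ratio of 0.41 (0.11 to 0.73). Without *Apoc1*, a split chosen after the values were seen, 106 and 205 UMIs remained (4.52 and 5.42 CPM) and the ratio was 0.26 (−0.08 to 0.61). Within cells of 1000 to under 2000 UMIs the ratio of the sum turned to −0.058 (−0.59 to 0.48), and in cells with a TRB contig it was 0.13 (−0.41 to 0.68). In the other 3 bins of depth the sum was higher in the library labelled dKO: 11.4 CPM (7.61 to 16.3) against 4.63 CPM (1.86 to 9.55) in cells of 500 to under 1000 UMIs, 6.01 CPM (4.87 to 7.34) against 4.47 CPM (3.13 to 6.18) at 2000 to under 4000, and 8.15 CPM (6.42 to 10.2) against 4.69 CPM (3.27 to 6.53) at 4000 or more. The intervals overlap in each of these 3 bins, but overlap does not test the difference, and no interval of the ratio is given for them. The 2 libraries also differ in their cell classes and in neutrophil RNA (6 listed genes, 165 and 23107 UMIs), and the part of these in the ratio was not tested. With 1 library per genotype, a difference in free RNA and a difference between mice or preparations cannot be told apart. The ratios were read against those of all genes. Of 14012 genes with at least 30 UMIs over both libraries, 6.17% were at least 2-fold higher in the library labelled dKO and 5.89% at least 2-fold lower. Of the 5 members that reached this minimum (*Alb*, *Apoa2*, *Apoc1*, *Ttr* and *Fabp1*), none passed 2-fold in either direction, and their median log2 ratio was 0.64 beside −0.02 over all genes. No member reached 300 UMIs over both libraries, a minimum at which 3.71% of genes were at least 2-fold higher and 2.93% at least 2-fold lower.

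Other genes listed for hepatocytes were counted in the same way. Of 22 listed genes for secreted liver proteins, 19 had at least 1 UMI in each library. The 3 highest were *Trf*, encoding transferrin, with 740 and 2483 UMIs, *Hp*, encoding haptoglobin, with 145 and 661, and *Orm1*, an acute phase protein, with 9 and 20. The other 19 genes of the list had 50 and 96 UMIs together. *Trf* and *Hp* are also expressed by leukocytes, so their UMIs do not gauge hepatocyte RNA alone. The same held among 18 hepatocyte enzymes. *Ass1*, encoding argininosuccinate synthase, had 4301 and 6318 UMIs and *Adh1*, an alcohol dehydrogenase, 42 and 31, while the 15 lowest of the enzymes had 27 and 66 UMIs together. Transcription factors that define hepatocytes were at or near 0: *Foxa2*, *Foxa3* and *Onecut1* had no UMI in either library, and *Hnf4a* had 1 UMI, in the library labelled WT. *Nr1i3*, a nuclear receptor that senses xenobiotics, had 10 and 18 UMIs. Its gene (chromosome 1, 171213970 to 171220701) overlaps *Tomm40l* (171216011 to 171222514) on the other strand, and the part of this overlap in its UMIs was not tested.

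Of the other cells of the liver, the 5 genes of red cells had 24 and 21 UMIs. *Alas2*, the erythroid enzyme of heme synthesis, accounted for 20 in each library, and *Hba-a1*, an alpha globin, had 3 and 1. Among 7 genes of sinusoidal endothelium, the 3 with the most UMIs were *Dnase1l3*, a secreted nuclease, with 135 and 564, *Kdr*, a VEGF receptor, with 79 and 376, and *Clec4g*, a lectin, with 125 and 63. The remaining genes of that list had 77 and 54 UMIs together, so its genes did not move in 1 direction. Among 8 genes of stellate cells and fibroblasts the 3 highest were *Ecm1*, a secreted matrix protein, with 343 and 513 UMIs and the matrix genes *Dcn* with 4 and 47 and *Col3a1* with 2 and 28. The remaining genes of that list had 8 and 31 UMIs together. Of 5 cholangiocyte genes, the epithelial adhesion gene *Epcam* had 144 and 1726 UMIs, while the keratins *Krt7* and *Krt19* had at most 1 UMI in a library. *Epcam* UMIs were in 135 (1.28%) and 1463 cells (8.38%), and those of *Ecm1* in 276 (2.61%) and 468 cells (2.68%). Whether the captured immune cells express *Epcam*, *Ecm1*, *Dnase1l3* or *Kdr* was not tested. The UMIs of these genes therefore do not gauge RNA of other liver cells alone. *S100a8* and *S100a9*, the abundant calcium-binding proteins of neutrophils, had 86 and 64 UMIs in the library labelled WT, against 7624 and 9269 in that labelled dKO, and the granule gene *Ngp* had 0 and 2861. The sum of the 8 hepatocyte transcripts differed 1.33-fold between the libraries.

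Next, the level of the 8 genes was set out by cell class. Classes were gated by UMIs of marker genes, none of them a member, in 15 classes, of which 11 held at least 50 cells in both libraries. T cells carried at least 2 UMIs of *Cd3d*, *Cd3e*, *Cd3g* or *Trac* or a TRB contig, and were divided into regulatory T cells (Tregs, *Foxp3*), effector T, naive-like T, cycling T, T cells with few ribosomal protein UMIs (low-ribosomal T) and other T. Droplets that met gates of 2 lineages are called mixed, and droplets that met none unassigned.

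In T cells outside the mixed class the sum was 4.46 CPM from 74 UMIs in 7301 cells of the library labelled WT and 5.95 CPM from 123 UMIs in 11620 cells of the library labelled dKO. By *Alb* alone it was 1.57 CPM (26 UMIs) and 0.870 CPM (18 UMIs). The T cell classes of the library labelled WT ran from 2.94 CPM in effector T cells (18 UMIs), 3.04 in cycling T cells (6 UMIs) and 4.56 in naive-like T cells (13 UMIs) to 6.42 in other T cells (27 UMIs), 7.05 in Tregs (8 UMIs) and 7.15 in low-ribosomal T cells (2 UMIs). In the library labelled dKO the order was naive-like T at 3.08 CPM (4 UMIs), effector T at 4.60 (14 UMIs), other T at 5.97 (48 UMIs), cycling T at 6.52 (14 UMIs), Tregs at 6.79 (41 UMIs) and low-ribosomal T at 16.2 (2 UMIs). Each of these intervals overlapped that of the next class in the order, so neighbouring classes were not resolved. Classes further apart in the order were not compared by a ratio. Tregs, which numbered 430 and 3102 cells, had a log2 ratio between the libraries of −0.05 (−1.16 to 1.25).

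The pDCs, which carry no T cell receptor, had 3.25 CPM (8 UMIs in 1226 cells) and 6.09 CPM (54 UMIs in 2987 cells), within the range of the T cell classes. Of the 54 member UMIs in pDCs of the library labelled dKO, *Alb* made up 22.2% (12.0 to 35.6), *Apoa2* 20.4% (10.6 to 33.5), *Ttr* 16.7% (7.92 to 29.3) and *Apoc1* 14.8% (6.62 to 27.1). Among the 123 member UMIs of T cells in that library the shares were 14.6% (8.91 to 22.1), 30.1% (22.1 to 39.0), 5.69% (2.32 to 11.4) and 22.0% (14.99 to 30.3). All 4 pairs of intervals overlapped, but overlap does not test a difference, and the makeup of pDCs and T cells was not compared directly. Between the libraries, the share of *Alb* among the member UMIs of T cells was 35.1% (24.4 to 47.1) in the library labelled WT, against 14.6% (8.91 to 22.1) in that labelled dKO, intervals that do not overlap. In T cells with a TRB contig, mixed droplets included, it was 28.6% (17.3 to 42.2) and 16.1% (8.02 to 27.7), which overlap.

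**Figure D2:**
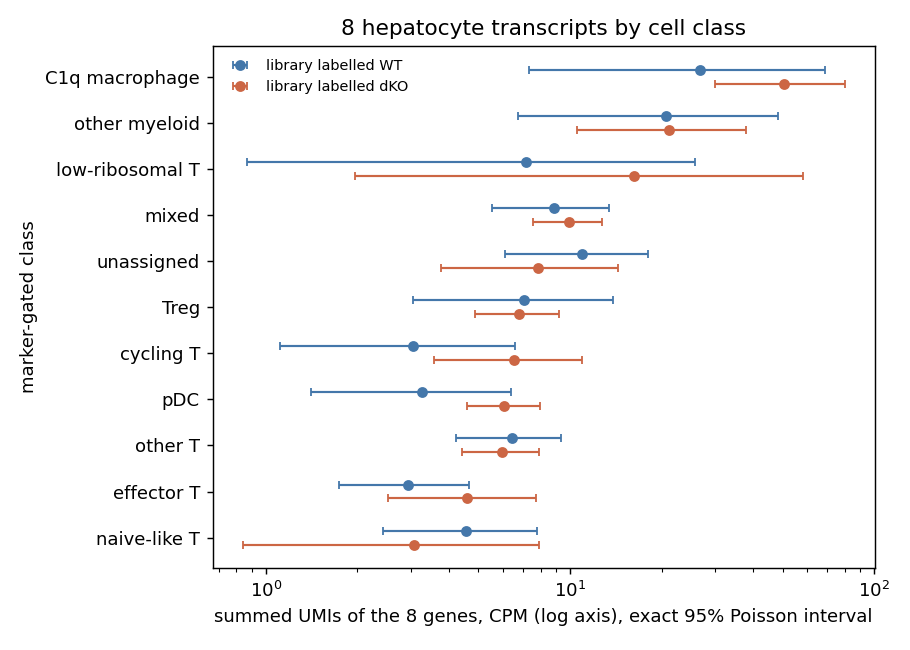
Summed CPM of the 8 genes (log x axis) in the 11 marker-gated classes of each library, with exact 95% Poisson intervals for counting error. The C1q macrophage class lies highest in both libraries (26.8 and 50.5 CPM), and neighbouring classes overlap.

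The highest levels were in the myeloid classes. Droplets gated by *C1qa*, *C1qb* and *C1qc*, complement genes of tissue macrophages, had 26.8 CPM of the sum (7.31 to 68.7, 4 UMIs in 66 cells) in the library labelled WT, against 50.5 CPM (29.9 to 79.8, 18 UMIs in 114 cells) in that labelled dKO. Other myeloid cells had 20.7 CPM (5 UMIs) and 21.2 CPM (11 UMIs). *Apoc1* carried much of this. It had 2 and 11 UMIs in the C1q macrophage class, or 13.4 CPM (1.62 to 48.4) and 30.9 CPM (15.4 to 55.2), against 0.543 and 1.31 CPM in T cells outside the mixed class. The level of *Apoc1* was thus 24.7-fold that of T cells (2.60 to 119) in the library labelled WT, against 23.7-fold (10.6 to 49.3) in that labelled dKO. In other myeloid cells of the library labelled dKO 10 of 11 member UMIs were *Apoc1* (19.3 CPM), and that class of the library labelled WT had 1 *Apoc1* UMI of 5. *Apoc1* thereby differed between C1q macrophages and T cells beyond counting error in both libraries. In the library labelled WT this rested on only 2 UMIs in the class.

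*Apoe*, the neighbour of *Apoc1* and a major apolipoprotein of macrophages as well as of hepatocytes, was high in the same classes. It was at 18821 and 12444 CPM in the C1q macrophage class and at 53.0 and 52.0 CPM in T cells outside the mixed class. Of the cells with an *Apoc1* UMI, 12 of 21 (57.1%, 34.0 to 78.2) and 33 of 65 (50.8%, 38.1 to 63.4) also had an *Apoe* UMI. Among all cells the share was 9.02% and 8.07%. Among cells with an *Alb* UMI it was 26.3% (13.4 to 43.1) and 18.4% (8.76 to 32.0). Cells with an *Apoc1* UMI were deeper, with medians of 2561 and 2778 UMIs. C1q macrophages, other myeloid cells and mixed droplets were 2, 1 and 6 of the 21 such cells in the library labelled WT. They were 9, 8 and 12 of the 65 in that labelled dKO. *Apoe* was found in 97.0% and 93.9% of all C1q macrophages. The parts of depth and of cell class in these shares were not tested.

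The 7 genes other than *Apoc1* were also higher in C1q macrophages than in T cells of the library labelled dKO, at 19.6 CPM (7 UMIs) against 4.64 CPM (96 UMIs), a 4.23-fold difference (1.66 to 9.06). These 7 UMIs were 2 each of *Alb*, *Apoa2* and *Fabp1* and 1 of *Apoa1*. In the library labelled WT the class had 13.4 CPM (2 UMIs, both *Alb*) against 3.92 CPM (65 UMIs), a ratio of 3.42 whose interval (0.406 to 12.9) includes 1. Other myeloid cells had 4 UMIs of the 7 genes in the library labelled WT (16.6 CPM, 4.23-fold the level of T cells, 1.12 to 11.4) and 1 UMI in that labelled dKO (1.93 CPM, 0.415-fold, 0.0104 to 2.37). When every droplet with at least 4 C1q UMIs was taken, mixed ones included, the 7 genes were 3.24-fold (1.15 to 7.43, 6 UMIs) and 4.51-fold (2.64 to 7.36, 20 UMIs) the level of T cells, and *Apoc1* 35.1-fold (12.3 to 99.7, 9 UMIs) and 13.6-fold (6.97 to 25.9, 17 UMIs).

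Mixed droplets, which met the gates of 2 lineages, had 8.85 CPM of the sum (22 UMIs in 580 droplets) and 9.90 CPM (59 UMIs in 1356 droplets), and their median depth was 3558 and 4072 UMIs. Split after the values were seen, mixed droplets that met a myeloid gate had 14.7 CPM (8.55 to 23.5) and 15.5 CPM (10.9 to 21.4), and those that did not had 3.76 CPM (1.22 to 8.78) and 6.16 CPM (3.86 to 9.33). *Apoc1* had 8 and 11 UMIs in the first kind and 0 and 3 UMIs in the second, in 256, 566, 324 and 790 droplets. By the same one-sided limit, the count of 0 allows up to 3 UMIs. For the sum, the intervals of the second kind of mixed droplet overlap those of T cells outside the mixed class (3.51 to 5.60 and 4.94 to 7.10). Overlap does not test a difference, and no ratio of these droplets to T cells was computed.

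**Figure D3:**
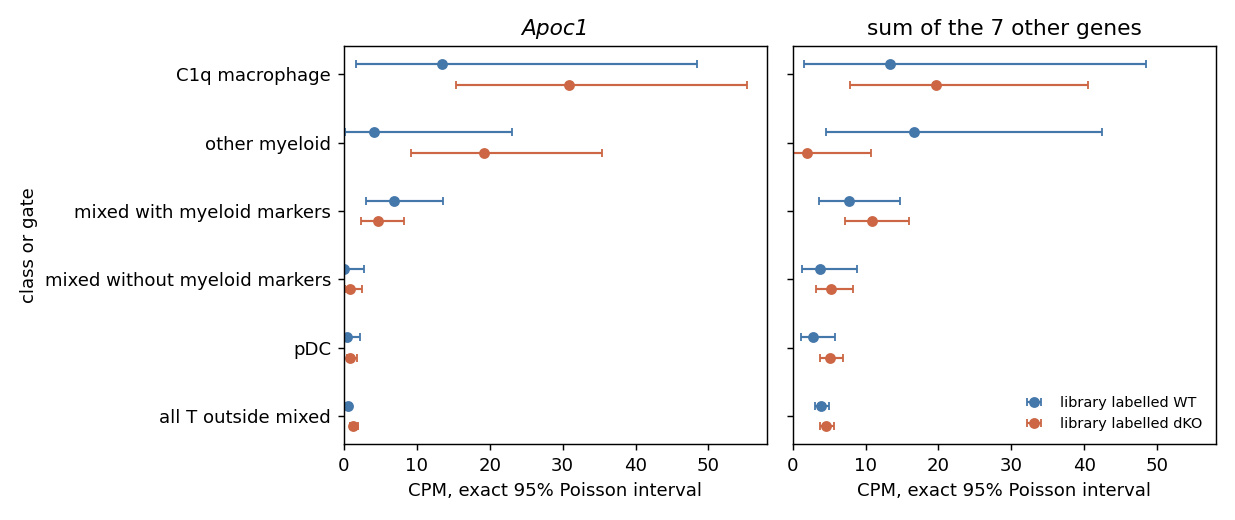
CPM of *Apoc1* (left) and of the 7 other genes summed (right) in myeloid, mixed, pDC and T cell gates, by library, with exact 95% Poisson intervals for counting error. *Apoc1* lies at 0.406 and 0.902 CPM in pDCs and at 0.543 and 1.31 CPM in T cells outside the mixed class. In C1q macrophages it lies at 13.4 and 30.9 CPM, while the other genes reach 13.4 and 19.6 CPM there.

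No class differed between the libraries beyond counting error. The log2 ratio of the sum, dKO over WT, ranged from −0.57 (−2.64 to 1.13) in naive-like T cells to 1.18 (−2.61 to 4.96) in low-ribosomal T cells, and the 11 intervals all included 0. In pDCs it was 0.91 (−0.17 to 2.19), in cycling T cells 1.10 (−0.37 to 2.77) and in effector T cells 0.65 (−0.47 to 1.74). Over T cells outside the mixed class as a whole it was 0.41 (−0.01 to 0.85).

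The evenness over classes was then set against that of all genes. In the 8 classes with at least 1000000 UMIs in both libraries, a limit set after the class sizes were known, the sum was highest in unassigned droplets of the library labelled WT (11.0 CPM) and lowest in effector T cells (2.94 CPM), a 3.73-fold range. The range in the library labelled dKO was 3.22-fold, from mixed droplets (9.90 CPM) to naive-like T cells (3.08 CPM, 4 UMIs). Among genes with at least 100 UMIs, 68.5% of 10143 and 58.8% of 10969 had as small a range or a smaller one. A range within 2-fold was found for 34.7% and 30.3% of all genes, and the sum of the 8 genes was outside it. This turned in the library labelled dKO when T cells were taken by TRB contig alone, with a log2 range of 0.70 (−0.28 to 1.74), and the range was 2.74 when the CPM of single cells was averaged. The intervals beside the log2 ranges, 0.81 to 2.97 and 0.25 to 3.61 for the main ones, are those of the ratio between the highest and the lowest class. They do not cover the choice of these classes by the same counts, so they are not intervals of the range. At these counts the evenness of the 8 genes cannot be ranked among all genes. The C1q macrophage class, with fewer UMIs than this limit, is outside this comparison.

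Depth was examined next, since a fixed amount of free RNA per droplet would weigh more in a shallow cell. In T cells outside the mixed class of the library labelled WT, the 8 genes had 3.33 UMIs per 1000 cells (0.686 to 9.72) in cells of 500 to under 1000 UMIs, 10.4 (7.21 to 14.6) in cells of 1000 to under 2000, 9.87 (6.26 to 14.8) in cells of 2000 to under 4000 and 17.4 (9.51 to 29.2) in cells of 4000 UMIs or more. The library labelled dKO had 9.20 (5.77 to 13.9), 8.61 (6.45 to 11.3), 11.4 (7.55 to 16.4) and 32.7 (19.99 to 50.6) UMIs per 1000 cells. In that library the first 3 bins overlap although the median depth of their cells rose from 869 to 2523 UMIs, and the deepest cells stood above them. Relative to all UMIs, the level there was 10.8 CPM (6.79 to 16.4) in the shallowest cells and 4.28 CPM (2.84 to 6.19) at 2000 to under 4000 UMIs, intervals that do not overlap, and 5.70 CPM (3.48 to 8.80) in the deepest. In the library labelled WT it was 4.12, 7.11, 3.64 and 2.95 CPM. The depth bins were chosen after the files had been seen.

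**Figure D4:**
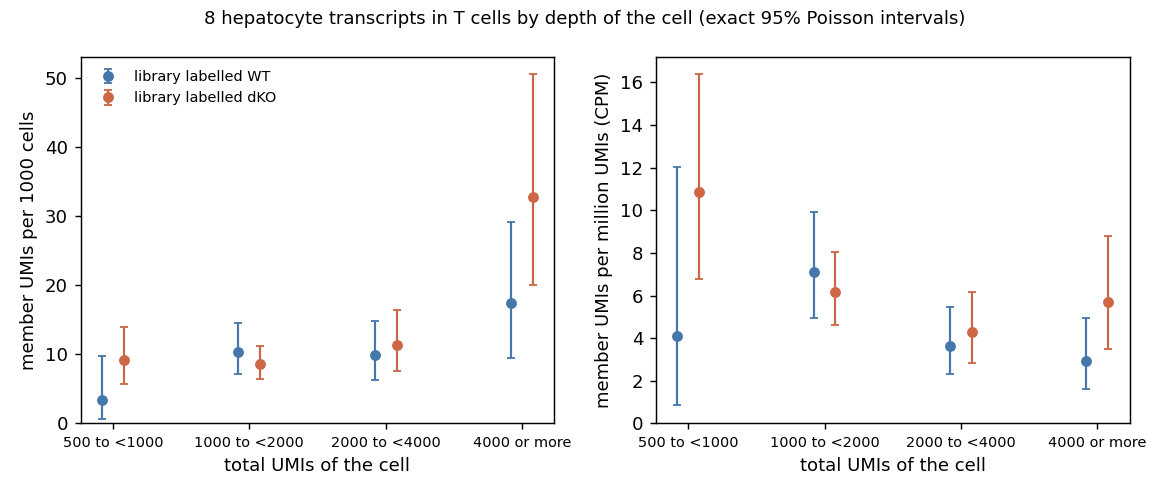
UMIs of the 8 genes per 1000 T cells (left) and in CPM (right) in 4 bins of cell depth, by library, with exact 95% Poisson intervals for counting error. Per cell the count is highest in cells of 4000 UMIs or more (17.4 and 32.7 per 1000 cells).

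After random thinning of every cell to 2000 UMIs, with 6375 and 10144 shallower cells left out, a UMI of the 8 genes was found in 1.005% of 4181 cells (0.725 to 1.36) and 1.27% of 7318 cells (1.03 to 1.55), intervals that overlap. T cells outside the mixed class had 0.797% (0.517 to 1.17) and 0.878% (0.579 to 1.27), and pDCs 0.682% and 1.12%. Mixed droplets had 1.81% (0.783 to 3.53) and 1.97% (1.28 to 2.89). In the library labelled dKO C1q macrophages had 3.95% (0.822 to 11.1) and other myeloid cells 4.84% (1.80 to 10.2). Among the T cell classes the share ran from 0.606% in naive-like T cells to 1.32% in Tregs of the library labelled WT and from 0.362% in other T cells to 2.11% in cycling T cells (0.916 to 4.12) of that labelled dKO.

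Droplets with 2 or more UMIs of the 8 genes numbered 10 and 15. The variance of the count per thinned droplet was 1.08 and 1.11 times its mean, and 1.205 and 1.17 times before thinning. Droplets with 3 or more UMIs of the 8 genes numbered 2 in the library labelled WT, against 4 in that labelled dKO. They were a Treg with 2 *Alb* and 1 *Ttr* and a mixed droplet with 3 *Apoc1* in the library labelled WT. In the library labelled dKO they were a C1q macrophage with 3 *Apoc1* and 1 *Alb*, another myeloid cell with 3 *Apoc1*, a T cell with 2 *Apoc3* and 1 *Apoa1*, and a pDC with 1 *Alb*, 1 *Ttr* and 1 *Fabp1*.

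Different members in 1 droplet were rare, in 5 of 117 and 8 of 257 positive droplets. Of the cells with an *Alb* UMI, 3 of 38 (7.89%, 1.66 to 21.4) and 5 of 49 (10.2%, 3.40 to 22.2) also had another member. Of the cells without *Alb*, 0.751% (0.595 to 0.935) and 1.19% (1.04 to 1.37) had one. The same held for *Apoa1*, with 2 of 11 (18.2%, 2.28 to 51.8) against 1.01% and 3 of 17 (17.6%, 3.799 to 43.4) against 1.38%. *Apoc1* had 2 of 21 (9.52%, 1.17 to 30.4) against 0.911% in the library labelled WT, but 1 of 65 (1.54%, 0.0389 to 8.28) against 1.10% in that labelled dKO. *Fabp1* had 1 of 13 (7.69%, 0.195 to 36.0) against 0.986%, and 3 of 36 (8.33%, 1.75 to 22.5) against 1.27%. *Apoa2*, with 1 of 25 (4%, 0.101 to 20.4) against 0.874% and 2 of 61 (3.28%, 0.400 to 11.3) against 1.13%, and *Ttr*, with 1 of 11 and 2 of 23, had intervals that overlap those of the cells without them in both libraries. The cells with *Alb* were deeper, with medians of 2242 and 3092 UMIs against 1678 and 1683, and the part of depth in this was not tested.

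Cells that the filter removed were looked at as well. All of them, 46 and 183, were removed for 5% or more mitochondrial UMIs. In the library labelled dKO they held 10 UMIs of the 8 genes, 58.3 CPM (27.9 to 107), beside 7.33 CPM in the kept cells, and these were 4 of *Apoa2*, 3 of *Apoc1* and 1 each of *Alb*, *Ttr* and *Fabp1*. The removed cells of the library labelled WT held 0 UMIs of the 8 genes among 56639 UMIs, which allows up to 3 UMIs. The removed cells were not gated into classes.

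The 10 genes whose level followed the sum of the 8 most closely over the 22 profiles (11 classes in each library) were *Dock4* (Pearson r 0.94), *Lrmda*, *Slc11a1*, *Abca1*, *Axl*, *Fcgr4*, *Gab1*, *Fmn1*, *Adgre1* and *Gk* (r 0.91), out of 11671 genes with at least 100 UMIs. Among them *Adgre1* encodes the macrophage marker F4/80, *Axl* a receptor for apoptotic cells, *Fcgr4* an Fc receptor, *Abca1* a cholesterol exporter and *Slc11a1* a metal transporter of phagosomes. The profiles share libraries and differ in depth, and the sum of the 8 was highest in the C1q macrophage class of both libraries. Without *Apoc1* the closest 10 genes held none of these, and the highest r was 0.83, for *Ccl7*.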

How the data were processed

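The authors aligned the reads with the Cell Ranger 7.0.1 pipeline to mm10 and deposited, for each library, UMI counts of every gene in every cell, whole numbers without normalization and limited to droplets called as cells; receptor tables list productive contigs. Cells with more than 200 genes and less than 5% mitochondrial UMIs were kept, as in the study. UMIs were summed over cells and divided by all UMIs of those cells (CPM). Intervals are exact 95% ones: Poisson for CPM, conditional binomial for ratios and Clopper-Pearson for shares. Gates required 2 UMIs for T cells, 4 for pDCs, C1q macrophages and other myeloid cells, 3 for cycling T cells and B cells, 2 for naive-like T cells and ILC3-like cells, 1 for Tregs and effector T cells, 4 for mature dendritic cells and 20 for neutrophils. Low-ribosomal T cells had less than 8% ribosomal protein UMIs. *Clec7a*, a listed myeloid marker, was not used here. Doublets were not called, and droplets of 2 lineages form the mixed class.

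Genes were compared with the members over all genes of at least 30 UMIs (ratio), 100 UMIs (evenness, likeness); likeness is Pearson's r of log2(CPM + 10). Named genes are the members, the targeted genes, the 10 most alike and the 3 highest of each of 8 lists, of which some are not reported here. Members and lists were chosen with earlier results of these data known. The 5 liver transcription factors, the sum without *Apoc1*, the depth bins, the comparison with *Apoe*, the split of mixed droplets and the removed cells were added after values were seen. Alternatives were other cell filters, scalings, gates, thinning depths, minimum counts and pseudocounts. Scripts were tested on simulated data. Python 3.11.15, numpy 2.4.6, pandas 2.3.3, scipy 1.17.1, matplotlib 3.10.9, R 4.3.3 and edgeR 4.0.16 (TMM factors alone) were used. Promoter sequences come from RefSeq, which matched 4 of the 8 genes in the table used.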

Additional observations from a re-analysis of the deposited data

How the results depend on the processing

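The summed level of the 8 genes, dKO over WT, turned from a log2 ratio of 0.41 to −0.058 in cells of 1000 to under 2000 UMIs but not in the other 3 bins of depth, and the cause was not tested. Thinning to 1000 UMIs gave a member UMI in 0.707% of 8627 and 0.667% of 14391 cells, where the depth and the cells counted both changed, and the order of the libraries turned. With genes of at least 500 UMIs, 76.2% and 67.9% were as even over classes as the sum, and fewer genes were compared. At a minimum of 300 UMIs, 366 genes were at least 2-fold higher and 289 at least 2-fold lower, from 9856 genes and with no member among them. Of the 10 genes most like the members, 6 were kept with log2(CPM + 1) and 5 with at least 500 UMIs. Among single members, *Ttr* moved to −1.22 in cells of 1000 to under 2000 UMIs and *Fabp1* to −0.18 in cells with a TRB contig. The other 35 summary values and 67 values of single genes stayed within the main value's counting error, though for *Alb*, *Apoa2* and *Apoc1* the interval came to exclude or include 0 under some of them. The interval of the sum also came to include 0 in cells with a TRB contig, in T cells outside the mixed class (−0.014 to 0.85) and without *Apoc1*. In the library labelled dKO so did the interval of the log2 ratio of the highest to the lowest class, which does not cover the choice of these classes. This was so without mixed droplets (−0.45 to 3.47), with gates doubled (−0.25 to 3.74) and with T cells by contig alone (−0.28 to 1.74). Among the 67 values of single genes, the ratio changed sign for *Apoa1* (0.31 in cells with a TRB contig and 0.17 in T cells outside the mixed class), *Ttr* (−0.34 and −0.32 in the same cells) and *Fabp1* (−0.049 in cells of 1000 to under 2000 UMIs). With TMM scaling the ratio of the sum was 0.44. No droplet had 5 or more member UMIs, so leaving such droplets out changes nothing. *Apoc3* or *Mup20* had 0 UMIs in a library under some alternatives, which then gave no ratio. No paired analysis was possible because each genotype has 1 library, and for the same reason no replicate could be left out. With 129 and 277 UMIs of the 8 genes, differences between classes of a few UMIs were below what this depth can show.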
